A study of Mus musculus with 12 samples.

Results

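The genes described here are 9 genes of the germinal centre B cell programme: Bcl6, Irf8, Mef2c, Mef2b, S1pr2, Rgs13, Gcsam, Nuggc and Basp1. They were selected by symbol, and all 9 were found among the 51826 genes counted in each library. A total of 7 of the 9 passed the filter on low counts and could be tested, while Mef2b and Gcsam did not.

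Germinal centres are structures in lymphoid follicles where activated B cells divide, mutate their antibody genes and are selected for affinity. BCL6, a transcriptional repressor, is required for this state and holds back genes of activation, cell cycle arrest and plasma cell differentiation. Transcription factors of the MEF2 and IRF families act at the same stage, and receptors that couple to G proteins, such as S1PR2, keep the cells inside the follicle. Many B cell lymphomas arise from germinal centre cells and keep part of this programme.

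The series concerns phosphorylation of RPL12 (uL11), a protein of the large ribosomal subunit, in mitosis, and the libraries hold 3′ mRNA reads, which come from near the end of polyadenylated transcripts. There were 6 groups of 2 libraries: cells with RPL12 S38D, RPL12 S38A or RPL12 WT, each taken as mitotic cells and as asynchronous cells. S38D and S38A replace serine 38 of RPL12 by aspartate and by alanine. Mitotic cells had been held in nocodazole, a drug that depolymerises microtubules, for 8 h at 100 ng/mL and were then given a release of 10 min, and cells were harvested in cycloheximide, an inhibitor of translation, at 100 µg/mL.

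All 6 groups were 19DN cells, derived from 19PP, a B cell lymphoma line of mouse, by deleting its GFP and hCD2 reporters with Flp and sorting the cells that had lost both. The parent line came from a Rag2-/-γC-/- host that had received Cγ1-Cre; Myc/P110*flSTOP marrow, so Myc and an active PI3K subunit were shared by every group, switched on by a Cre that in mice is active mainly in germinal centre B cells. Whether each RPL12 line was 1 clone is not given in the sources used here. Nothing states that the replicates were separate cultures, so p-values measure only the spread between these libraries, which may be technical.

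Gene reads per library ranged from 3432875 to 6587997. Replicates differed beyond counting error for 14.3% to 46.3% of genes, most in S38D asynchronous cells. The paired libraries of S38D asynchronous and of WT mitotic cells lay farthest apart. Calls that changed when replicate 1 of both was left out (called here the 2 far libraries) are given with each comparison. With 2 libraries a group, the values cannot tell which library of a pair is the unusual one. Leaving out replicate 1 was thus a choice, and leaving out replicate 2 of both was not tried. All 8 B cell markers examined were present, with a summed level of 1547 to 2323 CPM in mitotic libraries and 2580 to 3620 CPM in asynchronous libraries. Of 9 T and NK cell markers 6 had no read in any library, and their summed level was 2.85 to 6.51 CPM in mitotic libraries and 2.83 to 7.42 CPM in asynchronous libraries. Of 8 myeloid markers 4 had no read, and the 6 stromal markers summed to at most 0.709 CPM in any mitotic library and 1.96 CPM in any asynchronous one. Plasma cell markers summed to 5149 to 5716 CPM in mitotic libraries and 6403 to 7103 CPM in asynchronous libraries. Among them Tnfrsf17 averaged 0.0157 CPM, and Prdm1 was at 1.07 CPM in S38A and 6.77 CPM in WT asynchronous cells. Other genes of the list thus made up the sum. Markers of follicular dendritic cells summed to 124.8 to 175 CPM in mitotic libraries and 145 to 199 CPM in asynchronous libraries, with Cxcl13 at no read. Of the 4 markers counted only Cr1l and Mfge8 averaged 1 CPM or more, and they made up nearly all of the sum. Mme, a gene of the wider germinal centre list used below, had no read in any library. CPM here are counts scaled to library size with edgeR's TMM factors, so a fold change is relative to the bulk of the genes. In libraries from pooled cells, fewer cells of a kind and less RNA per cell cannot be told apart.

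Mef2b and Gcsam were at the limit of detection. Mef2b, a MADS box transcription factor, had 3 and 2 reads in the WT mitotic libraries, 1 read in each S38D asynchronous library, 1 read in WT asynchronous replicate 1 and none in the other libraries, 8 reads in all. Gcsam, an adaptor of B cell receptor and motility signalling, had 13 reads in all, with at most 4 in a library. A count of 0 allows up to 3 reads, which corresponded to 0.473 to 0.85 CPM depending on the library and covers counting error only. Of both genes in all libraries only the 4 reads of Gcsam in S38D asynchronous replicate 1 exceeded that count, so no difference between groups was detectable at this depth, and neither enters the counts below. An exon of Mef2b shares 62 bases with Borcs8, which had 167 to 444 reads per library, and how reads in such overlaps were assigned is not given in the sources used here.

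**Figure D1:**
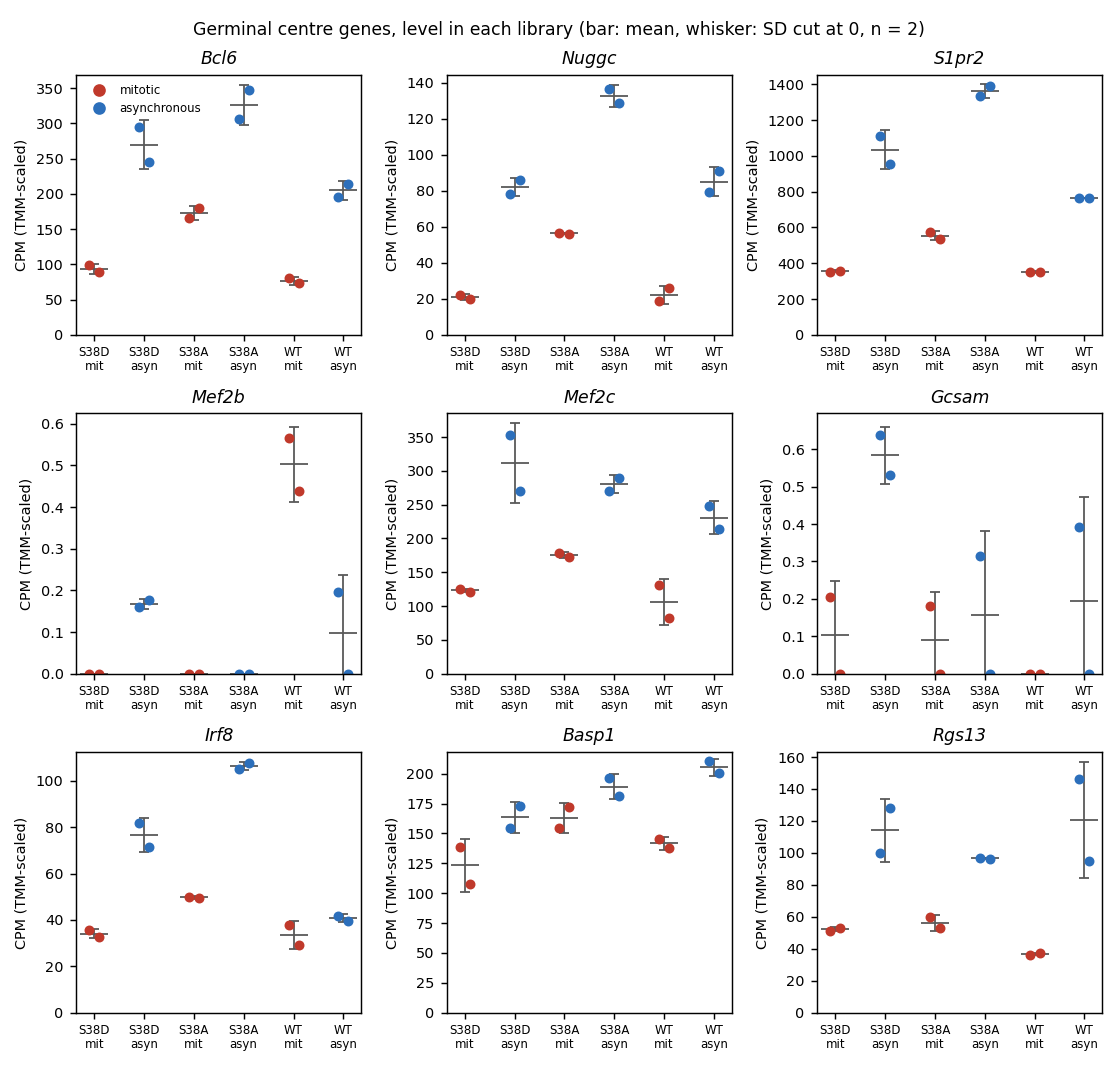
Level of each of the 9 genes in each library, as TMM-scaled CPM on the vertical axis. Points are libraries (mitotic in red, asynchronous in blue), the horizontal bar is the mean of the 2 libraries of a group and the whisker is the SD, cut at 0. Bcl6, S1pr2, Nuggc, Mef2c and Rgs13 were lower in every mitotic library than in every asynchronous library, and Mef2b and Gcsam stayed under 1 CPM.

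The first comparison set mitotic cells against asynchronous cells. All 7 testable genes fell in mitotic cells in the average over the 3 lines, by 1.31-fold for Basp1 to 3.28-fold for Nuggc, and 21.6% of the 10477 genes tested fell in the same comparison. The median log2 fold change of the 7 genes was -1.21, beside -0.02 over all genes tested. The calls rest on edgeR's quasi-likelihood test with Benjamini-Hochberg adjustment over all genes tested, called at an adjusted p under 0.05. All 7 calls were also made with DESeq2, with scaling to the spike-in RNA and with any 1 library left out.

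Bcl6 (chr16:23965052-23988852, minus strand, GRCm38) encodes the repressor that defines the germinal centre state. Its level in mitotic libraries was 98.7 and 89.0 CPM in S38D, 166 and 179.8 CPM in S38A, and 80.1 and 72.8 CPM in WT. In asynchronous libraries it was 294 and 245 CPM in S38D, 307 and 347 CPM in S38A, and 195 and 215 CPM in WT. Each mitotic library lay under each asynchronous library, although the S38A mitotic libraries came close to the WT asynchronous ones. The log2 fold change averaged over the lines was -1.29 (SE 0.0722, adjusted p = 1.75e-09, edgeR), a fall of 2.44-fold. By line the log2 fold change was -1.52 in S38D, -0.92 in S38A and -1.42 in WT, called in each line.

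RefSeq gives a pair of promoters for Bcl6, and both hold the letters TTCNNNGAA, the core recognised by BCL6 and by STAT proteins. They are shown, with 1 promoter each of Irf8 and of Mef2c, because these 3 genes, of the 8 that RefSeq covers here, hold this motif, which reads the same on both strands. Capitals mark matches to TTCNNNGAA and, in the second Bcl6 promoter, 1 match to the composite motif of ETS and IRF proteins, which overlaps none of the others. Each sequence is 300 bases long on GRCm38.p6 and spans the start of transcription. Nuggc was not among the 8.
Bcl6, first promoter (chr16:23988803-23989102, minus strand): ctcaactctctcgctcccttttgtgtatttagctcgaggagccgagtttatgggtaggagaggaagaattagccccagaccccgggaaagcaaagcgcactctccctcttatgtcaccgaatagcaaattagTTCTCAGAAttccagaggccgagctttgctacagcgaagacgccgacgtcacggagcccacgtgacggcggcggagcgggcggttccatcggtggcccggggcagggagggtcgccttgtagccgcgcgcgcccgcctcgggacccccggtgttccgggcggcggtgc
Bcl6, second promoter (chr16:23981234-23981533, minus strand): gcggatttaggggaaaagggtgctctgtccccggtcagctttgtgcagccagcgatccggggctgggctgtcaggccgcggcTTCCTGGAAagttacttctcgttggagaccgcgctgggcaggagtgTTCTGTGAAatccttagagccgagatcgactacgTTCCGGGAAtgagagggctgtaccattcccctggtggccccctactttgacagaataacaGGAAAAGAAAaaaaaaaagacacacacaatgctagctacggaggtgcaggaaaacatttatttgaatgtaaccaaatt
Irf8 (chr8:120736108-120736407, plus strand): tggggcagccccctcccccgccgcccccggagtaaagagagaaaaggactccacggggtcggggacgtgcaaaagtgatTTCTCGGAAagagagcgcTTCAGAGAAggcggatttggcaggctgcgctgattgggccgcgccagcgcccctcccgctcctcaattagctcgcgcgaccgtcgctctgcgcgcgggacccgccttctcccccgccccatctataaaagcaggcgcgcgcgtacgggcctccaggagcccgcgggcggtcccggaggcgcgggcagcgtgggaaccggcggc
Mef2c (chr13:83503784-83504083, plus strand): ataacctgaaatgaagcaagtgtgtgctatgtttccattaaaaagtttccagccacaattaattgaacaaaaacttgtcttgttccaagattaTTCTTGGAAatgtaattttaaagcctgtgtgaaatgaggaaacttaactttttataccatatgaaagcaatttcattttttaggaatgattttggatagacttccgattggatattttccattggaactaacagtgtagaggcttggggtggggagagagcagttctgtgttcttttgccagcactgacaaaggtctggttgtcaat

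Counted from the start of transcription, the TTCNNNGAA match began at position -118 in the first Bcl6 promoter and at positions -168, -122 and -88 in the second, where the composite motif began at -28. The Irf8 promoter had matches at -171 and -153, and that of Mef2c at -157. Across 32851 promoters 8.3% hold TTCNNNGAA and 2.72% hold the composite motif on either strand. These shares count promoters, while the counts among the 8 are of genes, and Bcl6, Irf8 and Mef2c each have more than 1 promoter. The other promoters of Irf8 and of Mef2c held no match to the motifs examined. The MEF2 motif was in none of the promoters of the 8 genes, beside 3.69% of all promoters, and the octamer ATGCAAAT was in 1 of them, that of Mef2b, beside 1.74% of all. These matches describe the letters of the windows and were not tested against the expression values.

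Irf8 (chr8:120736358-120756694, plus strand) encodes an interferon regulatory factor expressed through B cell development and in germinal centre cells. In mitotic libraries it had 35.6 and 32.6 CPM in S38D, 50.1 and 49.3 CPM in S38A, and 37.6 and 29.2 CPM in WT. In asynchronous libraries it had 82.0 and 71.4 CPM in S38D, 105 and 108 CPM in S38A, and 41.8 and 39.4 CPM in WT. The WT libraries of the 2 states lay close together without overlap, while the states were farther apart in both mutant lines. The average log2 fold change over the lines was -0.85 (SE 0.0833, adjusted p = 7.85e-07, edgeR). Its log2 fold change was -1.17 in S38D and -1.10 in S38A, both called, and -0.28 in WT (adjusted p = 0.177), not called. With both far libraries left out the WT value was -0.45 (adjusted p = 0.0441), and with spike-in scaling it was -0.72 (adjusted p = 0.00563). The annotation places Irf8 inside a same-strand gene, Gm20388, which had no read in any library.

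Mef2c (chr13:83504034-83667080, plus strand) encodes a MADS box transcription factor downstream of the B cell receptor. Mitotic libraries had 125 and 121 CPM in S38D, 179 and 172 CPM in S38A, and 131 and 82.5 CPM in WT. Asynchronous libraries had 353 and 269.9 CPM in S38D, 271 and 289.7 CPM in S38A, and 248 and 214 CPM in WT. The states did not overlap, but the replicates of S38D asynchronous and of WT mitotic cells were far apart, and these are the groups of the 2 far libraries. The average log2 fold change was -1.04 (SE 0.108, adjusted p = 9.99e-06, edgeR), and -1.10 without those libraries. By line it was -1.34 in S38D, -0.67 in S38A and -1.11 in WT, all called, and the S38A call was lost when any 1 of the 4 S38A libraries was left out (adjusted p = 0.0767 to 0.17) or either S38D mitotic library (adjusted p = 0.0516 and 0.052).

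S1pr2 (chr9:20962361-20976781, minus strand) encodes the sphingosine 1-phosphate receptor that confines B cells to the germinal centre through G-alpha-13. It had 351 and 359 CPM in S38D, 572 and 537 CPM in S38A, and 353 and 349 CPM in WT mitotic libraries. The asynchronous libraries had 1113 and 957 CPM in S38D, 1333 and 1389.9 CPM in S38A, and 766 and 764 CPM in WT. The mitotic S38D and WT libraries overlapped, and every mitotic library lay under every asynchronous one. The average log2 fold change was -1.32 (SE 0.0598, adjusted p = 1.43e-10, edgeR), with the smallest p of the 7 genes at rank 16 of all genes tested. By line the log2 fold change was -1.54 in S38D, -1.30 in S38A and -1.12 in WT, all called.

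Rgs13 (chr1:144138654-144177372, minus strand) encodes a regulator of G protein signalling that dampens chemokine responses of germinal centre B cells. It had 51.3 and 53.1 CPM in S38D, 59.8 and 52.7 CPM in S38A, and 36.3 and 37.3 CPM in WT mitotic libraries. The asynchronous libraries had 100.1 and 128 CPM in S38D, 96.9 and 96.1 CPM in S38A, and 146 and 94.7 CPM in WT. The 2 WT asynchronous libraries were the least alike of any pair for this gene. Its log2 fold change averaged -1.21 over the lines (SE 0.103, adjusted p = 2.47e-07, edgeR). It was -1.13 in S38D, -0.78 in S38A and -1.72 in WT, all called. The S38A call was lost without S38A asynchronous replicate 1, S38A asynchronous replicate 2 or S38A mitotic replicate 2 (adjusted p = 0.0531 to 0.0967).

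Nuggc (chr14:65598546-65648531, plus strand) encodes a GTPase of the nucleus, found in germinal centre B cells, that limits DNA damage in them. Its mitotic level was 22.0 and 19.7 CPM in S38D, 56.6 and 56.0 CPM in S38A, and 18.7 and 25.9 CPM in WT. Its asynchronous level was 78.5 and 85.7 CPM in S38D, 137 and 128 CPM in S38A, and 79.6 and 90.7 CPM in WT. It had the widest gap between states of the 7 genes, with an average log2 fold change of -1.72 (SE 0.0884, adjusted p = 6.77e-10, edgeR). The log2 fold change was -1.97 in S38D, -1.24 in S38A and -1.94 in WT, all called.

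Basp1 (chr15:25363277-25413764, minus strand) encodes a membrane-bound protein first described in brain. It had 139 and 108 CPM in S38D, 154 and 172 CPM in S38A, and 146 and 138 CPM in WT mitotic libraries. In asynchronous libraries it had 154 and 173 CPM in S38D, 196 and 182 CPM in S38A, and 210.4 and 200.4 CPM in WT. The states overlapped across the lines, and its average log2 fold change of -0.39 (SE 0.0736, adjusted p = 0.000541, edgeR) was the smallest of the 7 genes. It was -0.41 in S38D and -0.54 in WT, both called, and -0.21 in S38A (adjusted p = 0.289), not called. The S38D call was lost with DESeq2 (adjusted p = 0.0711), with spike-in scaling (adjusted p = 0.0508), when only its own 4 libraries were fitted, and without S38D asynchronous replicate 2 or S38D mitotic replicate 2. The WT call was lost without WT asynchronous replicate 1 (adjusted p = 0.0665).

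By line, then, 7 of the 7 genes fell in S38D, against a background of 14.8% of genes, 6 fell in S38A, against 8.06%, and 6 fell in WT, against 12.7%. None of the 7 rose in any line. The medians of the log2 fold changes were -1.34 in S38D, -0.92 in S38A and -1.12 in WT. B cell markers moved with these genes: 7 of 8 fell and none rose in the average over the lines. So did Hbb-bt, the 1 erythroid marker tested, whose log2 fold change was -0.95. Its means were 462 CPM in the mitotic group and 871 CPM in the asynchronous group. Of the other erythroid markers, Hba-a1 and Hba-a2 had no read, and Hbb-bs and Alas2 averaged 0.173 and 0.0399 CPM. The part of the B cell markers and of Hbb-bt in the result was not tested.

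**Figure D2:**
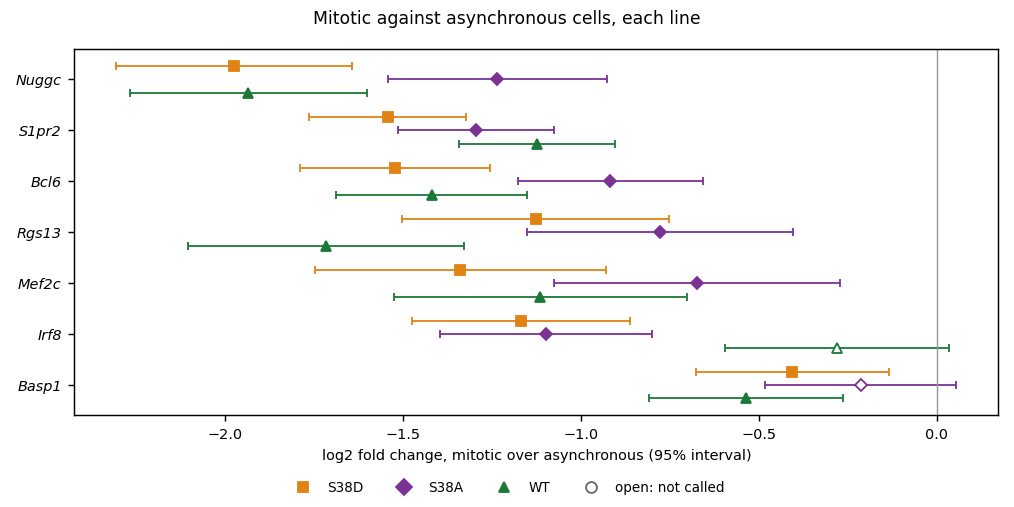
Log2 fold change of mitotic over asynchronous cells for the 7 testable genes in each line, on the horizontal axis, with 95% intervals from the edgeR fit. Filled symbols were called and open symbols were not. All points lie left of 0, with Nuggc in S38D farthest at -1.97, and the open symbols are Irf8 in WT and Basp1 in S38A.

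The next comparison set each mutant line against WT in asynchronous cells, where both mutants share the same 2 WT libraries. In S38D cells S1pr2 and Irf8 rose, 2 of the 7 genes, beside 4.87% of all genes tested. In S38A cells Bcl6, Nuggc, S1pr2 and Irf8 rose, 4 of the 7, beside 11.7%. None of the 7 fell in either. The median log2 fold change of the 7 genes was 0.40 in S38D and 0.64 in S38A, beside -0.0037 and -0.02 over all genes.

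Irf8 had the widest change of the 7, at 76.7 ± 7.47 CPM in S38D, 106 ± 1.90 CPM in S38A and 40.6 ± 1.73 CPM in WT (SD, n = 2 each). Its log2 fold change over WT was 0.92 in S38D (SE 0.144, adjusted p = 0.000893, edgeR) and 1.39 in S38A (SE 0.144, adjusted p = 7.97e-06). Every mutant library lay above both WT libraries. S1pr2 averaged 1035 ± 111 CPM in S38D, 1362 ± 40.0 CPM in S38A and 765 ± 1.64 CPM in WT. Its log2 fold change over WT was 0.44 in S38D (adjusted p = 0.015, edgeR) and 0.83 in S38A (adjusted p = 3.78e-05).

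Bcl6 averaged 269.6 ± 35.0 CPM in S38D, 327 ± 28.4 CPM in S38A and 205 ± 13.6 CPM in WT. It rose by 0.67 on the log2 scale in S38A (adjusted p = 0.00111, edgeR), and its log2 fold change in S38D was 0.40 (adjusted p = 0.0535), although both S38D libraries lay above both WT libraries. Nuggc averaged 82.1 ± 5.13 CPM in S38D, 133 ± 5.86 CPM in S38A and 85.1 ± 7.85 CPM in WT. It rose by 0.64 in S38A (adjusted p = 0.00494, edgeR), and the log2 fold change in S38D was -0.05 with a 95% interval of -0.36 to 0.26. The remaining 3 genes were not called. Their log2 fold changes in S38D and S38A over WT were 0.43 and 0.28 for Mef2c, -0.33 and -0.12 for Basp1, and -0.08 and -0.33 for Rgs13.

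These asynchronous values depend on the scale. Scaled to the spike-in RNA, the median of all genes shifted by -0.38 in S38D and by -0.45 in S38A relative to the TMM scale. Spike-in reads were 2.70% and 2.29% of gene reads in the 2 WT asynchronous libraries, which both shifts share. They were 3.34% and 2.83% in S38D and 3.31% and 3.04% in S38A asynchronous libraries. Replicates of a group thus differed in this share as well, and what set it was not tested. On that scale Irf8 stayed called at 0.53 in S38D (adjusted p = 0.0488, edgeR) and 0.94 in S38A (adjusted p = 0.000958), and S1pr2 stayed called in S38A at 0.38 (adjusted p = 0.0388). S1pr2 in S38D was 0.05, Bcl6 was -0.00011 in S38D and 0.22 in S38A, and Nuggc was 0.18 in S38A, none of them called. Basp1 was called lower in both mutants on that scale, at -0.70 in S38D and -0.58 in S38A, and Rgs13 was called lower in S38A, at -0.76. On the same scale 1307 of the 10477 genes tested were called lower in S38D and 3115 in S38A. The medians over all genes were -0.38 and -0.47. Mef2c turned to -0.17 in S38A, not called. The higher levels of Bcl6 and Nuggc in asynchronous S38A cells, and of S1pr2 in asynchronous S38D cells, are thus higher relative to the bulk of the genes. Without either WT asynchronous library S1pr2 in S38D was not called (adjusted p = 0.105 and 0.134), and without S38D asynchronous replicate 2 the count in S38D was 5, of which Bcl6 (0.52) and Mef2c (0.61) rose and Basp1 (-0.41) fell in addition. Fitted on the 4 S38D and WT asynchronous libraries alone, neither S1pr2 (adjusted p = 0.222) nor Irf8 (adjusted p = 0.072) was called in S38D. In S38A, Nuggc was not called without WT asynchronous replicate 1 (adjusted p = 0.0878), Rgs13 was called lower without WT asynchronous replicate 2 (-0.60, adjusted p = 0.0308), and Mef2c was called higher without the 2 far libraries (0.31, adjusted p = 0.00701). Hbb-bt, the only erythroid marker with enough reads to test, fell by 0.42 on the log2 scale in S38D and rose by 0.63 in S38A. Its part in the result was not tested.

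In mitotic cells the 2 mutants were compared with WT in the same way. In S38D none of the 7 genes was called by edgeR, beside 4.56% of all genes called in either direction, and the median log2 fold change was 0.03. In S38D, Bcl6 and Rgs13 had an unadjusted p under 0.05, which makes 2 genes, and DESeq2 called 0. In S38A 6 of the 7 genes rose and none fell, beside 8.31% of all genes that rose, and the median was 0.66.

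Nuggc averaged 20.9 ± 1.62 CPM in S38D, 56.3 ± 0.401 CPM in S38A and 22.3 ± 5.08 CPM in WT mitotic cells (SD, n = 2 each). Its log2 fold change over WT was -0.09 in S38D with a 95% interval of -0.44 to 0.26, and 1.34 in S38A (SE 0.157, adjusted p = 2.98e-05, edgeR). Bcl6 averaged 93.8 ± 6.86 CPM in S38D, 173 ± 9.63 CPM in S38A and 76.5 ± 5.13 CPM in WT. Its log2 fold change was 0.29 in S38D (adjusted p = 0.228, edgeR) and 1.18 in S38A (SE 0.126, adjusted p = 1.49e-05). The S38A libraries of both genes lay above all S38D and WT mitotic libraries.

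S1pr2 averaged 355 ± 5.59 CPM in S38D, 555 ± 25.0 CPM in S38A and 351 ± 3.24 CPM in WT mitotic cells. It rose by 0.66 on the log2 scale in S38A (adjusted p = 0.000384, edgeR), and its interval in S38D was -0.20 to 0.23. Mef2c rose by 0.72 (adjusted p = 0.0212), Rgs13 by 0.61 (adjusted p = 0.0311) and Irf8 by 0.57 (adjusted p = 0.013) in S38A. Basp1 was -0.20 in S38D (adjusted p = 0.443) and 0.20 in S38A (adjusted p = 0.314), not called.

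The calls of Mef2c, Irf8 and Rgs13 in mitotic S38A cells were the least firm: all 3 were lost without WT mitotic replicate 2, without S38A mitotic replicate 1 or without S38A mitotic replicate 2, which left 3 of 7. With DESeq2, Irf8 (adjusted p = 0.0523) and Rgs13 (adjusted p = 0.0577) were not called. In edgeR, Rgs13 was also not called on the spike-in scale (adjusted p = 0.0615) or with robust estimation off (adjusted p = 0.0531). Its call was lost as well without the 2 far libraries, WT mitotic replicate 1, or any 1 of the S38A asynchronous or S38D mitotic libraries. Mef2c was not called in S38A when only the groups compared were fitted (adjusted p = 0.0733, edgeR). In S38D, Mef2c was called at 0.56 (adjusted p = 0.00423, edgeR) without the 2 far libraries. Hbb-bt averaged 252 CPM in S38D, 631 CPM in S38A and 503 CPM in WT mitotic cells, called lower in S38D and higher in S38A (0.33 on the log2 scale) over WT, and lower in S38D than in S38A (-1.33). Its part in the result was not tested.

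**Figure D3:**
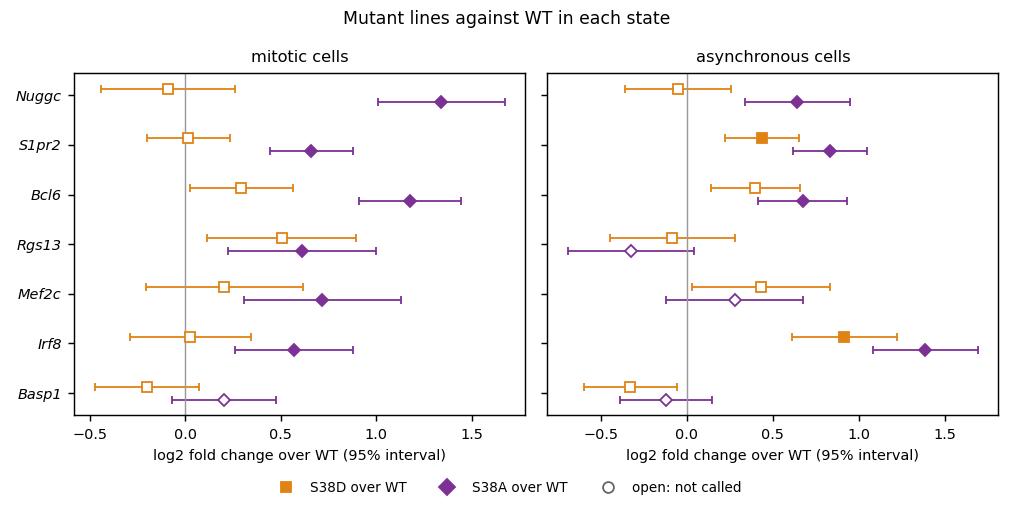
Log2 fold change of S38D (orange) and S38A (purple) over WT for the 7 testable genes, in mitotic cells on the left and asynchronous cells on the right, with 95% intervals from the edgeR fit on TMM-scaled counts. Filled symbols were called. In mitotic cells only S38A has filled symbols, 6 of 7. On the spike-in scale the asynchronous values of Basp1 and Rgs13 in S38A lie at -0.58 and -0.76 and are called lower. So are 3115 of all 10477 genes tested, with a median of -0.47.

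S38D and S38A were also compared with each other. In mitotic cells 5 of the 7 genes were lower in S38D than in S38A and none was higher, beside 10.2% of all genes that were lower. The log2 fold changes of S38D over S38A were -1.43 for Nuggc (adjusted p = 2.05e-05, edgeR), -0.88 for Bcl6 (adjusted p = 0.000206), -0.64 for S1pr2 (adjusted p = 0.000521), -0.54 for Irf8 (adjusted p = 0.0171) and -0.40 for Basp1 (adjusted p = 0.0401). Mef2c was -0.51 (adjusted p = 0.0795) and Rgs13 was -0.11 (adjusted p = 0.744). The calls of Irf8 and Basp1 were lost with DESeq2, which left 3, and on the spike-in scale Basp1 was lost (adjusted p = 0.121) and Mef2c gained (adjusted p = 0.0442). Basp1 was also lost with the size factors of DESeq2, the filter at 10 CPM or robust estimation off (adjusted p = 0.0501 to 0.0538), and without any 1 of the WT or S38A asynchronous libraries (adjusted p = 0.0611 to 0.0622). Irf8 was also lost without S38D mitotic replicate 1 (adjusted p = 0.0611). Mef2c was called without the 2 far libraries (-0.51, adjusted p = 0.000104), with only the groups compared (adjusted p = 0.000107), without the filter (adjusted p = 0.000940), and without S38D asynchronous replicate 1 or either WT mitotic library (adjusted p = 0.0153 to 0.0437). Irf8 and Basp1 were lost together without S38A mitotic replicate 1, S38A mitotic replicate 2 or S38D mitotic replicate 2, each of which left 3.

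In asynchronous cells 3 of the 7 were lower in S38D than in S38A, beside 3.89% of all genes, and none was higher. The log2 fold changes were -0.69 for Nuggc (adjusted p = 0.00699, edgeR), -0.47 for Irf8 (adjusted p = 0.0479) and -0.40 for S1pr2 (adjusted p = 0.0254). None of the 3 was called with spike-in scaling, with only the 4 libraries concerned, or without either S38A asynchronous library, and without S38D asynchronous replicate 2 only 1 was. Irf8 was also lost with DESeq2 (adjusted p = 0.145), with robust estimation off (adjusted p = 0.0638), and without any 1 of the WT asynchronous, S38A mitotic or S38D mitotic libraries (adjusted p = 0.0716 to 0.0763). Without the 2 far libraries Bcl6 was called in addition (-0.44, adjusted p = 0.00537).

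Whether the mitotic change itself differed between lines was tested as an interaction of line and state. None of the 7 genes was called in any of the 3 interactions with edgeR, beside 0.401% of genes called for S38D minus WT, 0.993% for S38A minus WT and 0.0382% for S38D minus S38A. At an unadjusted p under 0.05 there were 3, 4 and 3 of the 7 genes in these comparisons, and DESeq2 called 0 in each. The difference for Irf8 was -0.89 for S38D minus WT (adjusted p = 0.0734, edgeR) and -0.82 for S38A minus WT (adjusted p = 0.0697), a larger fall in both mutants than in WT that was not called. For Rgs13 it was 0.59 (adjusted p = 0.225) and 0.94 (adjusted p = 0.0819), a smaller fall than in WT, also not called. For Nuggc S38A minus WT was 0.70 (adjusted p = 0.11) and S38D minus S38A was -0.74 (adjusted p = 0.348).

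The count for S38A minus WT changed with the settings. On the spike-in scale Bcl6 (0.97), Nuggc (1.16), Mef2c (0.90) and Rgs13 (1.37) were called, where the median of all genes shifted by 0.46. Without S38D asynchronous replicate 1 the genes called were Bcl6, Nuggc, Irf8 and Rgs13, and without S38D asynchronous replicate 2 they were those 4 as well. These libraries are not part of that contrast, and the cause was not tested. Without S38D asynchronous replicate 2, S1pr2, Irf8 and Rgs13 were called for S38D minus WT, and Bcl6 for S38D minus S38A. Without the 2 far libraries 3 of the 7 were called for S38A minus WT, and 1 of the 7 for S38D minus S38A.

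Across the 6 groups, the order of levels had a common shape for Bcl6 and S1pr2: S38A asynchronous was highest, followed by S38D asynchronous, WT asynchronous, S38A mitotic, S38D mitotic and WT mitotic. Neighbours in that order did not overlap for Bcl6, but the tests called neither S38D against S38A asynchronous cells (adjusted p = 0.195, edgeR), nor S38D against WT asynchronous cells (adjusted p = 0.0535), nor S38D against WT mitotic cells (adjusted p = 0.228). For S1pr2 only the last 2 groups, S38D and WT mitotic, overlapped. Nuggc had the same first group, but S38D and WT overlapped in both states. Irf8 departed from this order, since S38A mitotic cells had more of it than WT asynchronous cells, at 49.7 ± 0.563 CPM and 40.6 ± 1.73 CPM, a pair that was not tested. Mef2c was highest in S38D asynchronous cells, which overlapped S38A asynchronous cells. Basp1 and Rgs13 were highest in WT asynchronous cells, which for Rgs13 overlapped S38D asynchronous cells.

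Over the 12 libraries the log2 levels of the 7 genes correlated with Pearson's r between 0.50, for Irf8 and Basp1, and 0.97, for Bcl6 and S1pr2. These points share their libraries and the split between mitotic and asynchronous cells, so the values describe the pattern only. Among 6835 genes averaging 10 CPM or more, those most like Bcl6 included Nusap1 (r = 0.99), which encodes a spindle protein, and Nmral1 (0.99). For S1pr2 they included Hmces (0.99), which protects abasic sites in DNA, and Pou2af1 (0.99), a B cell coactivator. For Nuggc they were Neil1 (0.98), a DNA glycosylase, Larp4b (0.98) and Pik3cg (0.98). Mef2c was most like Nmral1 (0.97), Ppp6r3 (0.97) and Prkce (0.96), Irf8 like Hdac7 (0.98), Rpp25l (0.98) and Dtx1 (0.98), Basp1 like Pnrc2 (0.95), Gphn (0.94) and Golph3l (0.94), and Rgs13 like Lig4 (0.98), Fam76b (0.97) and Ptbp3 (0.97).

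The other genes of the pathways around these 9 were counted in lists, which overlap for 13 genes. Among 30 tested genes of a wider germinal centre list, 22 fell and 1 rose in mitotic cells, with a median log2 fold change of -0.67, beside 21.6% and 20.5% of all genes. The log2 fold change was -1.68 for Hmces, -1.25 for Pou2af1 and -1.07 for Spib, an ETS factor. The gene that rose was Cd83, an activation marker, with 3.34 CPM in mitotic cells against 1.49 CPM in asynchronous cells, and was chosen for mention after its values were seen.

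Of 20 tested genes that BCL6 is known to repress, 10 rose and 3 fell in mitotic cells in the average over the lines, with a median log2 fold change of 0.47. Of all genes 20.5% rose and 21.6% fell in that average. By line, 8 rose and 1 fell in S38D (median 0.67), and 5 rose and none fell in S38A (median 0.54). In WT 3 rose and 4 fell (median -0.02), so the rise in the average was not seen in WT. Of all 10477 genes tested, 1211 rose in S38D, 704 in S38A and 1399 in WT, and 14.8%, 8.06% and 12.7% fell. The share of the list that rose in WT was near that of all genes. The difference between lines was not tested for this list. Id2, an inhibitor of E proteins, rose by 2.22 on the log2 scale (adjusted p = 1.09e-08, edgeR), Bcl2, an inhibitor of cell death, by 0.71 and Irf4, a factor of plasma cell differentiation, by 0.41, while Bcl2l1, another inhibitor of cell death, fell by 0.47. On the spike-in scale the counts in the average were 6 higher and 4 lower, with a median of 0.30, and in WT 2 higher and 6 lower, with a median of -0.46. Of all genes on that scale 1035 were higher and 3344 lower in the average (median -0.20). In WT 217 of all genes were higher and 3232 lower (median -0.46). Of 8 tested genes listed as low in germinal centre B cells 4 rose and none fell, beside 20.5% and 21.6% of all genes. Klf2, which promotes exit from lymphoid tissue, rose by 1.40. The others that rose, Bcl2, S1pr1 and Ccr7, are also on the list of genes repressed by BCL6 and were counted there. Prdm1, which drives plasma cell differentiation and is a target of BCL6, fell by 0.71 as the average of the log2 changes of the lines. Its mean over libraries was 1.45 CPM in mitotic against 3.18 CPM in asynchronous cells. The asynchronous mean was carried largely by WT, at 6.77 CPM beside 1.07 CPM in S38A. The S38A level was close to the 0.473 to 0.85 CPM that 3 reads correspond to.

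In the asynchronous mutant cells some genes repressed by BCL6 fell. In S38D 8 of 20 fell and none rose (median -0.77), beside 4.12% of all genes that fell, and in S38A 7 of 20 fell and none rose (median -0.76), beside 9.54%. Cdkn1b, a cell cycle inhibitor, was at 1.49 CPM in S38D, 3.29 CPM in S38A and 9.49 CPM in WT. Ccnd2, which encodes cyclin D2, was at 7.57 CPM in S38D, 5.92 CPM in S38A and 19.8 CPM in WT. Prdm1 was at 1.69 CPM in S38D, 1.07 CPM in S38A and 6.77 CPM in WT, and all 3 genes were called lower in both mutants. On the spike-in scale the counts were 8 lower in S38D and 13 lower in S38A, with none higher. On that scale 1307 and 3115 of all 10477 genes tested were also lower. The medians of the list were -1.12 in S38D and -1.22 in S38A, beside -0.38 and -0.47 over all genes. In mitotic cells the list went both ways, with 3 lower and 1 higher in S38D over WT (median -0.12) and 4 lower and 3 higher in S38A over WT (median -0.19), where Id2 rose by 1.19 (adjusted p = 0.00108, edgeR). Of all 10477 genes tested, 357 were lower and 121 higher in mitotic S38D cells, and 914 lower and 871 higher in mitotic S38A cells.

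In S38D over WT, 7 of 30 genes of the wider germinal centre list rose and 1 fell in asynchronous cells (median 0.18), while 1 rose and 1 fell in mitotic cells (median 0.12). In S38A 12 rose and 2 fell in asynchronous cells (median 0.34), while 15 rose and 2 fell in mitotic cells (median 0.61). Of all genes, 4.87% rose and 4.12% fell in asynchronous S38D cells, and 11.7% rose and 9.54% fell in asynchronous S38A cells. In mitotic cells 121 of the 10477 genes tested rose and 357 fell in S38D, and 871 rose and 914 fell in S38A. On the spike-in scale the asynchronous counts were 2 higher and 4 lower in S38D, and 6 higher and 3 lower in S38A. Beside them, 58 of all genes were higher and 1307 lower in S38D, and 202 higher and 3115 lower in S38A. Plxnb2, a receptor for semaphorins, rose in both lines and both states, with 66.5 CPM in S38D, 78.8 CPM in S38A and 17.7 CPM in WT asynchronous cells. B cell markers moved with these genes in asynchronous S38A cells, where 6 of 8 rose and none fell on the TMM scale, and 2 rose on the spike-in scale. In mitotic S38A cells 4 of 8 rose and none fell. Their part in the result was not tested.

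Among 22 tested genes of somatic hypermutation and class switching, 6 fell and 3 rose in mitotic cells (median -0.09), shares near the 21.6% and 20.5% of all genes that fell and rose, with Msh6, a mismatch repair gene, called at a log2 fold change of -0.89. In S38A over WT, Hmces rose by 0.89 in mitotic cells and 1.29 in asynchronous cells. Of 13 genes of the sphingosine 1-phosphate and G-alpha-13 pathway 5 fell and 1 rose in mitotic cells (median -0.31), beside the same 21.6% and 20.5%. The gene that rose was S1pr1, the receptor for exit from lymphoid tissue, with 2.70 CPM in mitotic cells against 0.621 CPM in asynchronous cells, a log2 fold change of 1.90. Its asynchronous mean lay within the 0.473 to 0.85 CPM that 3 reads correspond to, so this fold change rests on few reads. Gna13, which encodes G-alpha-13 itself, was called lower in asynchronous S38D (-0.63) and S38A (-0.43) cells.

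Of 14 corepressor partners of BCL6, 3 fell and 1 rose in mitotic cells (median -0.05, beside -0.02 over all genes), and the share that fell was near the 21.6% of all genes. On the spike-in scale 6 fell and none rose, beside 3344 and 1035 of the 10477 genes tested. Rcor1, a scaffold of corepressor complexes, was called higher in S38A in both states (1.10 in mitotic and 1.29 in asynchronous cells) and in asynchronous S38D cells (0.52). Of 11 other MEF2 genes and class IIa deacetylases, 5 fell and 1 rose in mitotic cells, where the median was 0.02 on the TMM scale and -0.14 on the spike-in scale, with log2 fold changes of -1.67 for Hdac9, -0.63 for Hdac7 and -0.48 for Mef2d. Of 12 other IRF genes and partners of IRF8, 8 fell and 1 rose in mitotic cells (median -0.39), with log2 fold changes of -0.78 for Ikzf1 and -0.65 for Ets1. Of 5 plasma cell markers 4 fell and 1 rose in mitotic cells.

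**Figure D4:**
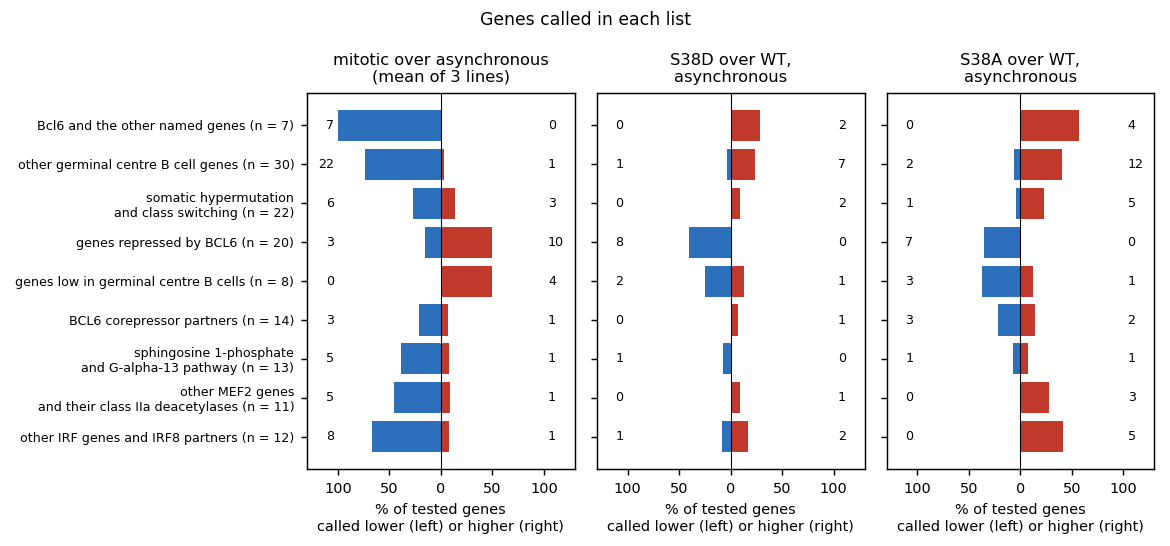
Share of tested genes called lower (left of 0, blue) or higher (right of 0, red) in each list, on the TMM scale, for mitotic over asynchronous cells and for S38D and S38A over WT in asynchronous cells, with the number called at each side. In mitotic cells 22 of 30 wider germinal centre genes were lower and 10 of 20 genes repressed by BCL6 were higher in the mean of the 3 lines. Of all genes 21.6% were lower and 20.5% higher. On the spike-in scale the counts were 27 lower and 6 higher, beside 3344 lower and 1035 higher of all 10477 genes tested. For the genes repressed by BCL6 the WT line alone had 3 higher and 4 lower.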

How the data were processed

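The values are counts of 3′ mRNA reads per gene in 12 libraries (QuantSeq 3′ FWD, per the labels' protocols), deposited by the authors without normalization. Per the submitters' processing notes, bcl2fastq 2.16.0.10, cutadapt 1.12 and STAR 2.5.3a were used with mm10. For the counting tool, its use of strand and its annotation no statement was found in the sources used here. Spike-in rows (92) stayed out of library sizes and tests. Of 51826 gene IDs 99.63% matched the GENCODE M21 annotation of GRCm38, which gave symbols and positions.

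Counts were fitted with edgeR 4.0.16 in R 4.3.3 (TMM scaling, robust quasi-likelihood test, 6 residual degrees of freedom) in 1 model of 6 groups. Genes passed filterByExpr at a minimum count of 10, which left 10477. P-values were adjusted by Benjamini-Hochberg over all of them in each comparison, with calls at an adjusted p under 0.05 and 95% intervals from the fit. With 2 libraries a group, SDs are over 2 values. The fit was tested on simulated data. Promoters came from RefSeq and were matched for 8 of the 9 genes.

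Alternatives were DESeq2 1.42.0, its size factors, spike-in scaling, no filter, a mean of at least 10 CPM, no robust estimation, only the groups compared, a replicate block, both far libraries left out and each library left out in turn. Named were the 9 genes throughout, the 4 genes of each list with the smallest adjusted p in the mean mitotic comparison, the 3 in each comparison of a mutant with WT, and the 3 genes most correlated with each member. The members and lists were chosen with earlier results of these data known. Some genes that this rule names are not reported here.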

Additional observations from a re-analysis of the deposited data

How the results depend on the processing

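Over all settings tried, 1740 values of the 7 genes kept their direction and side of the threshold, 82 were no longer called, 56 became called and 33, all of them not called, changed sign. Of the counts 403 stayed within 1.5 times and 143 did not, and where no cause is given the cause was not tested. Depth limits Mef2b and Gcsam, which had too few reads for any test.

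Genes called with DESeq2 numbered 1750 for S38D, 942 for S38A and 1782 for WT mitotic cells (2762, 1548 and 2727 with edgeR). For S38D and S38A over WT they were 584 and 1431 in asynchronous cells (942 and 2223) and 292 and 1052 in mitotic cells (478 and 1785). For S38D over S38A they were 444 in asynchronous and 1027 in mitotic cells (756 and 1851), with 3 of the 7 genes in mitotic cells, and 8 for the interaction of S38D minus S38A. On the spike-in scale they were 932 for S38A mitotic cells, 1133 for S38A over WT in mitotic cells, 402 and 1213 for S38D over S38A in asynchronous and mitotic cells (0 of the 7 in asynchronous cells), and 0, 491 and 0 for the interactions of S38D minus WT, S38A minus WT (4 of the 7) and S38D minus S38A.

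Without the filter the counts were 1585 and 718 for S38D over WT in asynchronous and mitotic cells (4 and 1 of the 7), and 726, 616 and 23 for the interactions in the order just given (1, 2 and 0 of the 7). A mean of at least 10 CPM gave 27 for S38D minus WT, and robust estimation off gave 1, 26 and 1. With only the groups compared they were 1172 for S38D and 2555 for S38A mitotic cells, 89 and 3913 for S38D and S38A over WT in asynchronous cells (0 of the 7 for S38D), 114 and 3120 for S38D over S38A (0 of the 7 in asynchronous cells), and 0, 939 and 2 for the interactions (3 of the 7 for S38A minus WT). With both far libraries left out they were 2913 for S38A mitotic cells, 3871 for S38A over WT in asynchronous cells, 1926 and 3183 for S38D over S38A, and 803 and 154 for S38A minus WT (3 of the 7) and S38D minus S38A (1 of the 7), and 1 of the 7 was called for S38D over WT in mitotic cells.

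The spike-in scale moved the share of called genes that were higher to 23.6% from 48.7% in the mean mitotic comparison, to 27.1% from 43.8% in S38D, to 6.3% from 51.3% in WT, to 4.2% from 54.1% and 6.1% from 55.1% for S38D and S38A over WT in asynchronous cells, to 11.9% from 25.3% for S38D over WT in mitotic cells, to 64.2% from 46.0% and 32.5% from 42.5% for S38D over S38A in asynchronous and mitotic cells, and to 98.2% from 50% for S38A minus WT.

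The replicate block changed few calls. Of the 7 genes, Irf8 was called for S38D minus WT (-0.88, adjusted p = 0.0474, edgeR) and for S38A minus WT (-0.82, adjusted p = 0.0493), which makes 1 each, and 95 genes were called for S38D minus WT. Mef2c was added for S38D over S38A in mitotic cells, which makes 6. The labels do not say that equal replicate numbers mark a shared source. Of 15 correlations of the replicate differences between groups 3 were above 0.1 and 3 below -0.1, from -0.40 to 0.79. The 3 above linked S38D asynchronous, WT mitotic and S38A mitotic cells (0.55 to 0.79). The 3 below set S38A asynchronous cells against each of these groups (-0.36 to -0.40). Of the variance within groups 69.9% lay on 1 axis. The block fits 1 shift for all groups, so it could not take up differences of opposite sign.

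With 1 library left out, when the remaining one was assumed to vary like the other groups, the 7 genes called numbered 7 in the mean mitotic comparison, 6 to 7 in S38D, 4 to 6 in S38A and 5 to 6 in WT. They numbered 1 to 5 and 3 to 5 for S38D and S38A over WT in asynchronous cells, 0 and 3 to 6 in mitotic cells, 0 to 4 and 3 to 6 for S38D over S38A in asynchronous and mitotic cells, and 0 to 3, 0 to 4 and 0 to 1 for the interactions. All genes called numbered 3801 to 4946 in the mean comparison, 1462 to 3730 in S38D, 630 to 2446 in S38A, 1121 to 3731 in WT, 237 to 3079 and 875 to 3331 over WT in asynchronous cells, 177 to 1081 and 829 to 2591 in mitotic cells, 225 to 1392 and 702 to 2715 for S38D over S38A, and 0 to 2666, 4 to 1218 and 0 to 354 for the interactions.

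Of the values that changed sign, those on the spike-in scale were Mef2c at -0.17 for S38A and Bcl6 at -0.00011 for S38D over WT in asynchronous cells, S1pr2 at -0.033 and Irf8 at -0.016 for S38D over WT in mitotic cells, S1pr2 at 0.29 for S38A minus WT, and Bcl6 at 0.25, Nuggc at 0.29 and Mef2c at 0.12 for S38D minus WT. Nuggc for S38D over WT in asynchronous cells was 0.0016 without the filter. Without both far libraries Nuggc was 0.025 and Rgs13 0.082 for S38D over WT and Mef2c -0.077 for S38D over S38A in asynchronous cells, Bcl6 0.077 and Mef2c 0.33 for S38D minus WT, and Irf8 0.061 for S38D minus S38A. With 1 library left out, Rgs13 ranged from -0.60 to 0.027 for S38A over WT in asynchronous cells, and Nuggc from -0.14 to 0.045 and Rgs13 from -0.36 to 0.27 for S38D over WT. In mitotic S38D over WT, Nuggc ranged from -0.31 to 0.16, Mef2c from -0.086 to 0.58 and Irf8 from -0.14 to 0.22. Mef2c ranged from -0.077 to 0.33 for S38D over S38A in asynchronous cells. For S38D minus WT, Bcl6 ranged from -0.23 to 0.039, Nuggc from -0.26 to 0.21, Mef2c from -0.52 to 0.15 and Basp1 from -0.065 to 0.30, and Irf8 from -0.17 to 0.061 for S38D minus S38A.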
